A study of Homo sapiens with 10 samples.

Results

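Interferon-stimulated genes are the genes that cells switch on after an interferon binds its receptor. A set of 37 of them was taken by gene symbol from the 62656 genes of the deposited expression table, and each symbol was found once. The set holds the IFIT and OAS families, the MX proteins, ISG15 and the enzymes that attach or remove it, and the transcription factors that carry the interferon signal. RNA was sequenced from PC3 cells, an established human prostate cancer line derived from a bone metastasis, after overnight starvation and 24 h with either DMSO, the vehicle, or 1 µM of GW3965. GW3965 is a synthetic agonist of the liver X receptors (LXRs), nuclear receptors for oxidised cholesterol. There were 5 libraries per condition, and the protocols name no interferon treatment in either of them. The labels do not say that the libraries of a condition came from separate cultures, so the p-values measure the spread between these libraries, which may be technical.

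Type I interferons signal through JAK kinases to STAT proteins, STAT2 among them, which join IRF9 and bind a DNA element known as the interferon-stimulated response element (ISRE). Interferon gamma acts mainly through paired STAT proteins at a shorter element, the gamma-activated site (GAS). The induced proteins sense, bind or degrade foreign RNA, block the entry and release of viruses, and modify other proteins with the ubiquitin-like protein ISG15. In many tumour lines part of these genes is transcribed without any added interferon, and LXRs are known in macrophages for holding back inflammatory genes.

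The elements that most of these genes share were read from their promoters, from 250 bases before to 50 bases after the start of transcription, in RefSeq on GRCh38.p14. Promoters were found for 30 of the 37 genes, and those of TRIM22, MX2, USP18, OASL, OAS2, IFIT2 and IRF7 were not found. The ISRE core was searched on both strands as GAAA, any 2 bases and GAAA. It was present in 21 of the 30 genes (70%), against 4.38% of the 27305 genes with a promoter of the same length. There were 14 genes with more than 1 match. The GAS pattern, TTC, any 3 bases and GAA, was present in 9 of the 30 genes (30%), against 9.38% of all genes. Both patterns were present in 5 genes, and in BST2, IFI27 and MX1 they overlapped. An LXR element written as AGGTCA, any 4 bases and AGGTCA was in none of the 30 genes and in 0.0256% of all genes. A match is a description of the letters and not a bound site, and its absence says only that these letters were not in this window.

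The following windows show the ISRE core in capitals with 15 bases on each side, 5′ to 3′ along the gene's own strand, so that a core on the other strand reads TTTC, any 2 bases and TTTC. ISG15 is shown as the most abundant of the genes, IFIT1 and IFIT3 as neighbours on chromosome 10, OAS3 as the most abundant of its family, IFI44L because the same window occurs at 2 places, and BST2 because its core lies against a GAS pattern. The coordinates are chr1:1013375-1013414 for ISG15, chr10:89392505-89392544 for IFIT1, chr10:89327860-89327899 for IFIT3, chr12:112938316-112938355 for OAS3, chr1:78620269-78620308 and chr1:78620360-78620399 for IFI44L, and chr19:17405736-17405775 for BST2, which is on the minus strand.
ISG15: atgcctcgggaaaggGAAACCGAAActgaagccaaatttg
IFIT1: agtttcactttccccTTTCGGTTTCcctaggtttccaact
IFIT3: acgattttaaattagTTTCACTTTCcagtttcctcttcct
OAS3: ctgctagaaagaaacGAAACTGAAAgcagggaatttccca
IFI44L: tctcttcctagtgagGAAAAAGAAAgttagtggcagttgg
BST2: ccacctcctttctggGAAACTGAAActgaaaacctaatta

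The ISRE core of ISG15 lay 107 to 98 bases before the start of transcription, and a second match overlapped it from 113 to 104 bases before the start. In IFI44L the windows began 91 bases apart and were identical over all 40 bases, at 164 to 155 and at 73 to 64 bases before the start. IFI35, the gene that came closest to the threshold in the comparison of conditions, held no match to the ISRE core. It held 1 GAS pattern from 22 to 14 bases before its start, shown in capitals with 10 bases on each side, chr17:43006752-43006780 on the plus strand. In GENCODE this stretch already lies in the first exon of longer IFI35 transcripts.
IFI35: aggcagggatTTCACGGAAatgaaagtgg

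Expression was given by the authors as RPKM, which divides the reads of a gene by its length and by a factor for its library. The lengths behind the values were those of GENCODE 29 for 25014 genes and differed for others. Comparisons of RPKM between genes therefore depend on the length used. The read total of a library, recovered from the steps of the values, lay between 30429384 and 41636379. On the first principal component of the recovered reads, which held 41.5% of the variance of 14314 genes, DMSO library 1 and GW3965 libraries 1 and 2 lay between 17.7 and 19.6 and DMSO library 4 at -21.8, with the other 6 libraries between -11.7 and 3.88. For most of the members with the larger fold changes, and where 1 of these libraries moved a value strongly, values without them are given beside the result. For BST2 and OAS1 the range over the alternative settings is given instead. Epithelial keratins were high, with KRT19 at 149 RPKM, while CDH1, the epithelial cadherin, was at 0.285 RPKM. Of 11 markers of leukocytes, endothelial cells and fibroblasts, 10 had means of at most 0.134 RPKM, and PECAM1 was at 0.604 RPKM. In such bulk RNA, fewer cells that express a gene and less of its RNA per cell cannot be told apart.

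The levels of the 37 genes spanned the table. ISG15, the ubiquitin-like modifier, stood at 38.4 ± 2.73 RPKM (SD over 10 libraries), above 94.5% of the tested genes, and PARP14, an ADP-ribosyltransferase, followed at 10.6 ± 1.24 RPKM. EIF2AK2, which encodes the kinase PKR that halts translation when it binds double-stranded RNA, was at 8.90 ± 0.723 RPKM and the transcription factor IRF7 at 8.82 ± 0.461 RPKM. These neighbours in the order differed by less than their spread, with EIF2AK2 higher in 5 of 10 libraries. STAT2 at 6.36 ± 0.259 RPKM and TRIM21, an antibody receptor and ubiquitin ligase, at 5.96 ± 0.549 RPKM did not differ beyond their spread either. At the other end, 9 genes had a mean under 0.5 RPKM, the level set for testing. They were HERC5 at 0.458, SAMD9L at 0.341, MX1 at 0.240, IFI44L at 0.171, RSAD2 at 0.149, IFI27 at 0.104, TRIM22 at 0.0517, MX2 at 0.0440 and XAF1 at 0.0015 RPKM. From ISG20 at 1.22 RPKM down to MX1, each gene differed from the next by less than the larger of their SDs. The order of neighbours in that stretch is therefore not resolved. Genes further apart in it could differ, as SAMD9 was above SAMD9L in 10 of 10 libraries.

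**Figure D1:**
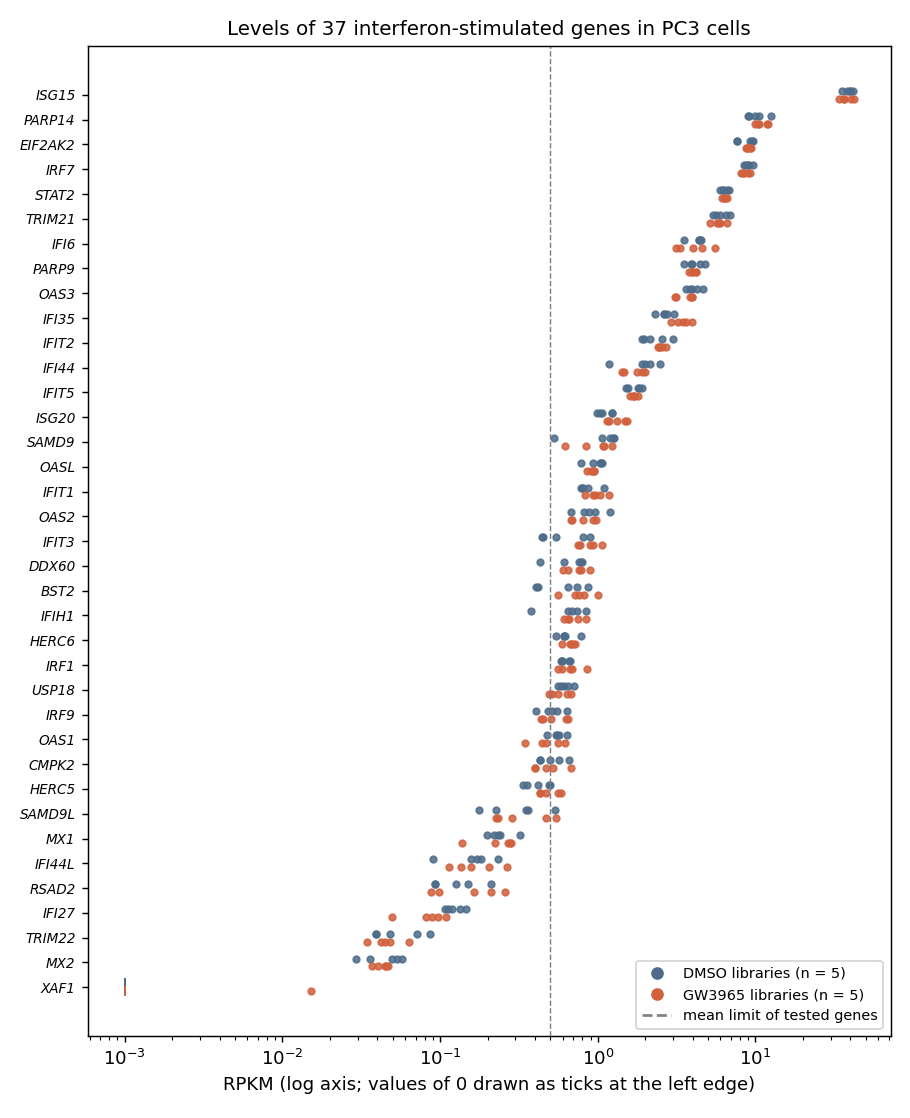
RPKM (log axis) of the 37 interferon-stimulated genes, 1 row per gene in order of the mean, with 1 point per DMSO library (blue) and per GW3965 library (orange); the dashed line is a mean of 0.5 RPKM, below which genes were not tested. ISG15 lies near 38.4 RPKM, XAF1 is at 0 in 9 of 10 libraries, and the ranges of the conditions overlap for each of the 28 tested genes.

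Related genes of the set differed widely in level. In RPKM, IFI44 was at 10.7 times the level of IFI44L, its neighbour 3650 bases away on chromosome 1. TRIM21 was at 115 times the RPKM of TRIM22, a restriction factor of retroviruses. In reads these gaps were smaller, with 1328 for IFI44 and 711 for IFI44L, and 4136 for TRIM21 and 230 for TRIM22. The rest of these ratios comes from the lengths by which the reads were divided. MX1, a dynamin-like GTPase that blocks viral ribonucleoproteins, was at 5.46 times the RPKM of MX2. SAMD9, an antiviral and growth-restraining protein, was at 2.98 times the RPKM of SAMD9L. In each of these pairs the first gene was higher in 10 of 10 libraries. In the OAS family, enzymes that make the antiviral messenger 2-5A, OAS3 was at 7.36 times the level of OAS1, which lies 5129 bases away, and at 4.46 times that of OAS2. In the IFIT family, which binds viral RNA by its cap or end, the RPKM order IFIT2, IFIT5, IFIT1 held in all 10 libraries. IFIT1 was above IFIT3 in RPKM in 8 of 10. Over all libraries IFIT1 held 1525 reads and IFIT3 1376, on annotated exon lengths of 4613 and 2640 bases. Divided by these lengths, the reads would place IFIT3 above IFIT1, so the order of IFIT1 and IFIT3 depends on the length used.

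The treatment itself was checked on LXR target genes, all 6 of which passed the test in the GW3965 direction. ABCA1, the cholesterol exporter, stood at 3.43 ± 1.34 RPKM in DMSO and 16.5 ± 2.37 RPKM in GW3965 (SD, n = 5 each), a log2 fold change of 2.29 ± 0.20 (SE) with an adjusted p of 0.00063 (limma, Benjamini-Hochberg over 20402 genes). ABCG1 (2.13), FASN (0.91), SCD (0.85), MYLIP (0.74) and SREBF1 (0.74) had log2 fold changes of the same sign.

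The comparison of GW3965 with DMSO asked whether the agonist moved the interferon-stimulated genes. Of the 28 genes tested, 0 passed the threshold of an adjusted p of 0.05 by limma, against 32 of all 20402 tested genes (0.157%). At an unadjusted p of 0.05, 2 of the 28 (7.14%) passed, IFI35 and IFIT3, against 6.99% of all tested genes, so the share was near the background. There was no gene among the 28 in which the 5 GW3965 libraries all lay on one side of the 5 DMSO libraries, against 1.84% of all tested genes. The log2 fold changes were split evenly, with 14 above and 14 below 0. Their median was -0.0048, beside 0.0034 over all tested genes, and they ran from -0.18 for OAS3 to 0.47 for IFIT3. The 95% intervals of all 28 lay between -1 and 1, and those of 19 lay between -0.5 and 0.5. The median residual SD of the 28 was 0.163 on the log2 scale, beside 0.181 for all tested genes. The log2 scale here is log2(RPKM + 0.1), which understates the change of genes near 0.5 RPKM.

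**Figure D2:**
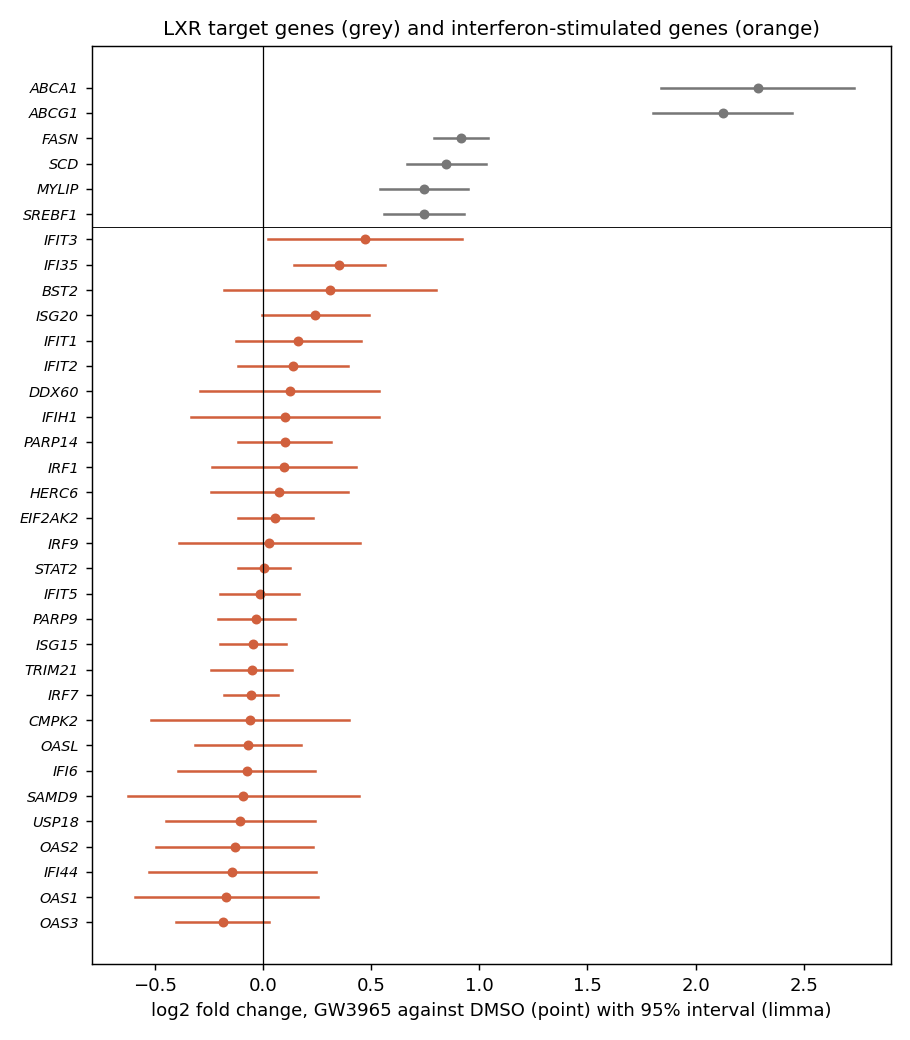
Log2 fold change of GW3965 against DMSO (point) with its 95% interval from limma (line) for 6 LXR target genes (grey) and the 28 tested interferon-stimulated genes (orange), each in order of the change. The LXR target genes lie between 0.74 and 2.29, while 26 of the 28 interferon-stimulated genes have intervals that include 0.

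Among the genes for RNA binding and sensing, 11 of 11 were tested and 0 passed, with 6 log2 fold changes above 0, 5 below and a median of 0.06. IFIT3 encodes a partner that stabilises IFIT1 on viral RNA. Its RPKM was 0.892, 0.801, 0.541, 0.451 and 0.445 in DMSO libraries 1 to 5 and 0.934, 1.07, 0.745, 0.769 and 0.895 in GW3965 libraries 1 to 5. All 5 GW3965 libraries were above the DMSO mean of 0.626 ± 0.207 RPKM, and 3 of them were above every DMSO library, but DMSO libraries 1 and 2 lay within the range of the treated ones. The log2 fold change was 0.47 ± 0.20 (SE), with a 95% interval from 0.02 to 0.92 and an adjusted p of 0.684 (limma, Benjamini-Hochberg). Leaving out 1 library at a time moved it between 0.38 and 0.60, and without DMSO library 1 and GW3965 libraries 1 and 2 it was 0.48. An unadjusted p under 0.05 was reached in 13 of the 21 alternatives that tested the gene.

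The other 3 IFIT genes gave smaller values. IFIT1, which binds the caps of foreign RNA, gave 0.16 as its log2 fold change (95% interval -0.12 to 0.45), and 0.29 without DMSO library 1 and GW3965 libraries 1 and 2. Without GW3965 library 5 it was 0.11. IFIT2, a related protein linked to cell death, had a value of 0.14, which was 0.23 without DMSO library 1 and 0.08 without DMSO library 5, and IFIT5, which binds uncapped RNA ends, had a value of -0.01. IFIT1, IFIT2 and IFIT3 share their ground with LIPA, which encodes lysosomal acid lipase and is annotated on the opposite strand. LIPA was at 6.26 RPKM with a log2 fold change of 0.06 and an adjusted p of 0.935 by limma. Whether the counting used the strand is not given in the sources used here, and without strand, reads of these genes and of LIPA cannot be told apart. IFIT2 also overlaps the non-coding gene AL353751.1 on its own strand, which was at 3.63 RPKM with a log2 fold change of 0.24 and an adjusted p of 0.399 by limma.

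OAS3, which makes 2-5A on binding long double-stranded RNA, had the lowest log2 fold change of the 28 tested genes. Its RPKM was 3.65, 3.85, 3.96, 4.67 and 4.27 in DMSO libraries 1 to 5 and 3.07, 3.12, 3.94, 3.96 and 3.86 in GW3965 libraries 1 to 5. No treated library reached the DMSO mean of 4.08 ± 0.397 RPKM, yet 3 of them lay within the DMSO range. The lowest were GW3965 libraries 1 and 2, which also stood apart on the first principal component. The log2 fold change was -0.18 ± 0.10 (SE), with an adjusted p of 0.777 (limma, Benjamini-Hochberg), and it was -0.09 without those libraries and DMSO library 1. OAS1 (-0.17), OAS2 (-0.13) and OASL (-0.07), the last a member of the family without enzyme activity, had values of the same sign, and adjusted p-values from 0.935 to 0.956. In all 4 genes the groups overlapped. Over the alternative settings the log2 fold change of OAS1 ran from -0.25 to -0.06.

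For EIF2AK2 the log2 fold change was 0.06 and the 95% interval ran from -0.12 to 0.23, the narrowest of these 11 genes. It overlaps GPATCH11 on the opposite strand, which was at 2.95 RPKM and had a log2 fold change of 0.39 with an adjusted p of 0.530 by limma. IFIH1, which encodes MDA5, a sensor of long double-stranded RNA, and DDX60, a helicase that assists such sensors, had log2 fold changes of 0.10 and 0.12. Both were lowest in DMSO library 4, with IFIH1 at 0.377 RPKM there and between 0.608 and 0.843 RPKM in the others. Without DMSO library 4 their values were -0.05 and -0.01, so the sign of both rests on that library.

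Among the genes that restrict the entry, replication or release of viruses, 6 of 12 were tested and 0 passed, with 2 log2 fold changes above 0, 4 below and a median of -0.05. BST2 encodes tetherin, which holds budding virions at the cell surface. Its RPKM was 0.737, 0.407, 0.420, 0.644 and 0.869 in DMSO libraries 1 to 5 and 0.561, 1.00, 0.816, 0.718 and 0.757 in GW3965 libraries 1 to 5. Only GW3965 library 2 was above every DMSO library, and each value rested on 14 to 44 reads. The log2 fold change was 0.31 ± 0.22 (SE) with an adjusted p of 0.864 (limma, Benjamini-Hochberg). Over the alternative settings it ran from 0.14 to 0.43.

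ISG20, an exonuclease that degrades single-stranded RNA, was at 1.04, 1.23, 1.23, 0.991 and 1.06 RPKM in DMSO libraries 1 to 5 and at 1.32, 1.49, 1.14, 1.18 and 1.54 RPKM in GW3965 libraries 1 to 5. All treated libraries were above the DMSO mean of 1.11 ± 0.114 RPKM, and 3 of the 5 were above every DMSO library. The log2 fold change was 0.24 ± 0.11 (SE) with an adjusted p of 0.725 (limma, Benjamini-Hochberg), and without DMSO library 1 and GW3965 libraries 1 and 2 it was 0.17. IFI44, a microtubule-associated protein, had a log2 fold change of -0.14 and SAMD9 one of -0.09. Both were lowest in DMSO library 4, IFI44 at 1.17 RPKM there and SAMD9 at 0.525 RPKM, and without that library both values were -0.30, with adjusted p-values of 0.530 and 0.722 by limma. TRIM21 had a value of -0.05, and CMPK2, a mitochondrial nucleotide kinase, one of -0.06.

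The other 6 of these genes had means under 0.5 RPKM and were not tested. This limit is on RPKM and not on reads, as BST2, which was tested, held 119 reads in DMSO and 154 in GW3965. RSAD2, which encodes viperin and lies head to head with CMPK2 on chromosome 2 with an overlap of 830 bases, held 136 reads over the DMSO libraries and 171 over the GW3965 libraries. IFI44L held 341 and 370 reads, SAMD9L 470 and 511, MX1 765 and 773, MX2 116 and 112, and TRIM22 125 and 105. These counts cover counting error only. In each of the 6 the range of the treated libraries overlapped that of the DMSO libraries.

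ISG15 and the genes for its conjugation and for ADP-ribosylation gave 0 calls among 5 tested of 6, with a median log2 fold change of -0.03. ISG15, at chr1:1001138-1014540 on the plus strand with an annotated span that begins upstream of the RefSeq start used above, was at 35.6, 40.0, 39.7, 41.7 and 38.2 RPKM in DMSO libraries 1 to 5 and at 34.1, 36.6, 42.2, 40.1 and 36.2 RPKM in GW3965 libraries 1 to 5. The ranges nearly coincided, with the highest and the lowest value both in treated libraries. The log2 fold change was -0.05 ± 0.07 (SE), with a 95% interval from -0.20 to 0.11 and an adjusted p of 0.955 (limma, Benjamini-Hochberg). Its log2 fold change was -0.01 without GW3965 library 1 and -0.02 without DMSO library 4. With 1004 to 1470 reads per library ISG15 was among the better measured members, and on the scale of RPKM + 0.1 the fitted interval is 0.871 to 1.08 times the DMSO level. USP18, the protease that removes ISG15 and restrains the interferon receptor, had a log2 fold change of -0.10, and HERC6, of the family of ISG15 ligases, one of 0.08. USP18 has a near-identical copy, USP41, so its reads are uncertain. HERC5, the main ISG15 ligase in human cells, was below the level for testing, with 356 reads over the DMSO libraries and 423 over the treated ones. PARP14 had a log2 fold change of 0.10, which was 0.18 without DMSO library 1, where the gene was highest, and 0.06 without DMSO library 4, where it was lowest. PARP9, which acts with the ubiquitin ligase DTX3L, had a value of -0.03, and one of 0.03 without DMSO library 1. PARP9 overlaps DTX3L on the opposite strand, which was at 11.9 RPKM with a log2 fold change of 0.15 and an adjusted p of 0.846 by limma.

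Among the transcription factors and their partners, 5 of 5 genes were tested and 0 passed, with 4 log2 fold changes above 0 and 1 below. IFI35, at chr17:43006725-43014456 on the plus strand, encodes a leucine zipper protein that binds NMI, a partner of STAT proteins. Its RPKM was 3.06, 2.61, 2.75, 2.29 and 2.62 in DMSO libraries 1 to 5 and 3.97, 3.62, 2.93, 3.45 and 3.25 in GW3965 libraries 1 to 5. The treated libraries were above every DMSO library except for GW3965 library 3, which lay below DMSO library 1. The means were 2.67 ± 0.277 and 3.44 ± 0.390 RPKM (SD, n = 5 each). The log2 fold change was 0.35 ± 0.10 (SE), with an adjusted p of 0.292 (limma, Benjamini-Hochberg), the lowest of the 28 genes. On the scale of RPKM + 0.1 this is a fitted fold of 1.28 with a 95% interval from 1.11 to 1.48.

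IFI35 was also the gene that moved nearest to the threshold under other settings. With the first principal component as a covariate its adjusted p by limma was 0.0501, the lowest reached by any of the 28 genes over 22 alternatives, at a log2 fold change of 0.33. Under that setting 146 of all tested genes passed. Over the alternatives the adjusted p of IFI35 ran from 0.0501 to 0.542, and its log2 fold change from 0.27 to 0.41, with an unadjusted p under 0.05 in 22 of 22. Without DMSO library 1 and GW3965 libraries 1 and 2 the log2 fold change was 0.31. NMI, the binding partner of the IFI35 protein and not a member of the set, was at 1.45 ± 0.294 RPKM in DMSO and 1.74 ± 0.056 RPKM in GW3965, with a log2 fold change of 0.27 and an adjusted p of 0.713 (limma, Benjamini-Hochberg).

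The factors that carry the signal to the ISRE gave narrow intervals where their level was high. For STAT2 the log2 fold change was 0.0051 and the 95% interval ran from -0.11 to 0.12. IRF7, the amplifier of the type I response, had a value of -0.05 with an interval from -0.18 to 0.07. IRF9, the DNA-binding partner of STAT2, was near the limit for testing at 0.525 RPKM and had a value of 0.03 with an interval from -0.39 to 0.45. It held 1222 reads over all libraries and overlaps the gene AL136295.5 on its own strand. The level of IRF9 in RPKM also depends on the length used. IRF1, the first interferon regulatory factor described, had a value of 0.10 and was highest in GW3965 library 3, at 0.853 RPKM.

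Of the mitochondrial and cell death genes 1 of 3 was tested. IFI6, an inhibitor of apoptosis, had RPKM from 3.53 to 4.55 in DMSO with a median of 4.42, and from 3.14 to 5.53 in GW3965 with a median of 4.04. Its treated libraries lay on both sides of the DMSO range, and the log2 fold change was -0.07 with an adjusted p of 0.965 (limma, Benjamini-Hochberg). IFI27, a protein of the same family, was below the level for testing, with 7 to 21 reads per library. Its RPKM was 0.108 to 0.147 in DMSO and 0.0497 to 0.108 in GW3965, and the highest treated library lay just above the lowest DMSO library. When all genes above 0 were tested, IFI27 had a log2 fold change of -0.28 and an adjusted p of 0.913 (limma, Benjamini-Hochberg). XAF1, an inhibitor of anti-apoptotic proteins, had 0 reads in 9 libraries and 4 reads in GW3965 library 2, so no fold change is given.

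The spread of the 28 genes was not even across libraries. DMSO library 4 held the lowest value of 8 genes (28.6%), namely DDX60, IFI35, IFI44, IFIH1, IFIT5, ISG20, PARP14 and SAMD9, while it held the lowest value of 15.7% of all tested genes. GW3965 library 1 held the lowest value of 7 (25%), IFI6, IRF1, ISG15, OAS2, OAS3, TRIM21 and USP18, against 13.1% of all tested genes. DMSO library 1 held the highest value of 6 genes (21.4%), against 10.5%. The median deviation of the 28 genes from their means lay between -0.093 in DMSO library 4 and 0.114 in DMSO library 1 on the log2 scale, and all 5 GW3965 libraries lay between these DMSO libraries, from -0.056 to 0.091. These shares are descriptions, and the part of library quality in them was not tested.

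**Figure D3:**
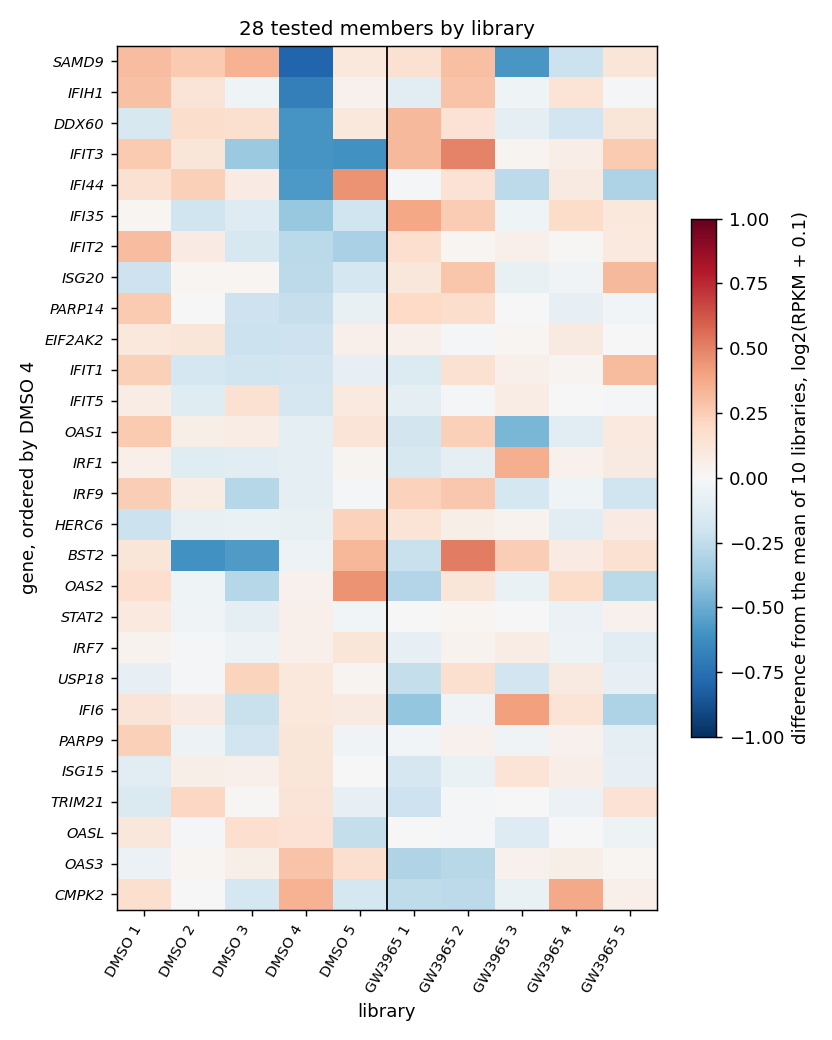
Difference of each library from the mean of the 10 libraries in log2(RPKM + 0.1), from -1 (blue) to 1 (red), for the 28 tested genes ordered by DMSO library 4; the black line parts DMSO from GW3965. The top of the DMSO 4 column is blue, with SAMD9, IFIH1 and DDX60 lowest, and no block of genes changes colour at the black line.

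The rest of the pathway was read from 5 lists of 109 genes, of which 63 were tested. By limma, 0 of the 63 passed the threshold, and 0 reached an unadjusted p of 0.05, which 6.99% of all tested genes did. Over the alternatives the second number ran from 0 to 4, with 4 in the replicate block and with library weights. There were 39 log2 fold changes above 0 (61.9%) and 24 below, beside 51.1% above 0 over all tested genes, and the median was 0.02.

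Ligands were close to absent. Of 21 interferon genes, 7 had 0 reads in all libraries, and IFNB1 had 3 reads in total and IFNG 0. IFNA13, which shares reads with its copy IFNA1, had 38 reads. The exception was IFNE, an interferon of epithelia that is made without infection, at 1.61 RPKM with 849 reads over the 10 libraries. IFNE lies on the same strand as the overlapping non-coding gene MIR31HG, which was at 0.832 RPKM, so reads counted for IFNE may belong to that transcript. For IFNE the log2 fold change was -0.08 with a 95% interval from -0.88 to 0.72, the widest of the tested pathway genes named here.

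Receptors and JAK-STAT genes were present, with 13 of 16 tested. The type I receptor chain IFNAR1 was at 2.95 RPKM and the gamma receptor chain IFNGR2 at 15.1 RPKM. IFNAR2, the other type I chain, was below the limit at 0.374 RPKM. It still held 1866 reads over all libraries, and its RPKM depends on the length used. IFNAR2 also overlaps the gene AP000295.1 on its own strand, so reads of the 2 genes may not be told apart. The kinases TYK2 (16.9 RPKM) and JAK1 (6.77 RPKM) had log2 fold changes of -0.03 and 0.11. At the ends of the list lay SOCS1, an inhibitor of JAK kinases, with a log2 fold change of -0.33 and an adjusted p of 0.793 by limma, and IFNGR1 with 0.14 and 0.782. STAT3 was at 0.020 RPKM, far below STAT2.

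Sensors were mixed, with 10 of 16 tested. MAVS, the mitochondrial adaptor, was at 31.2 RPKM with a log2 fold change of 0.0077, and the DNA sensor CGAS was at 3.75 RPKM. DDX58, which encodes the RNA sensor RIG-I, was at 0.170 RPKM, and DHX58, its relative LGP2, had 0 reads. The highest log2 fold change of the list was 0.24 for the DNA sensor IFI16, with an adjusted p of 0.870 by limma, and the lowest was -0.04 for IRF3, the factor that starts interferon transcription.

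Antigen presentation genes, which interferon gamma raises, gave the narrowest range of the 4 pathway lists with more than 1 tested gene, from -0.09 for TAP2 to 0.16 for ERAP1, over 15 of 18 genes. B2M was at 74.9 RPKM with a log2 fold change of -0.03, and HLA-B and HLA-C, whose reads may be shared among HLA genes, had values of 0.03 and -0.05. NLRC5 and CIITA, the activators of class I and class II genes, were at 0.134 and 0.141 RPKM, below the level for testing.

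Of 38 further interferon-induced genes, 24 were tested, with log2 fold changes from -0.13 for TRIM14 to 0.27 for NMI. IFITM3 and IFITM2, which block virus entry at membranes and are close copies of each other, were at 40.3 and 37.9 RPKM. ADAR, the RNA editing enzyme, was at 22.1 RPKM with a value of -0.01. The chemokine genes CXCL9 and CXCL10, typical of a strong gamma response, had 0 reads in all libraries, and CXCL11 had 2 reads in total.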

How the data were processed

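The authors aligned the reads of 10 libraries with HISAT2 and deposited RPKM values per Ensembl gene. The submitters' processing notes name HISAT2 2.1.0, HTSeq 0.11.2, DESeq2 1.22.2 and hg38, while the paper's methods name a mouse genome, and all identifiers in the table are human. The sample labels name polyA RNA, and the protocol describes total RNA depleted of ribosomal RNA with a stranded kit.

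Libraries were grouped by their titles. For each gene the values were whole multiples of 1 step, and 100% of the values above 0 gave whole reads, with the scale of 967 genes set by GENCODE 29 lengths. The tolerance was 5e-06 in a first search, wider for large counts, and wider again for 20 genes found in a second search. Each library's factor was its median-of-ratios size factor. Intervals from reads would cover counting error only. Positions are from GENCODE 29 on GRCh38.

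Conditions were compared with limma (version 3.58.1, R 4.3.3, eBayes with trend) on log2(RPKM + 0.1). The 20402 genes that averaged 0.5 RPKM or more entered the two-sided test, p-values were adjusted over all of them by the Benjamini-Hochberg method, and the threshold was 0.05. The test was also run on simulated data with known changes. Its recovery of changes as small as those of the members is not reported here. The 37 genes, the pathway lists and the tests were chosen with earlier results of these data known. Genes named are all members, with every library's value for those at the ends of the log2 fold changes and for ISG15, and the ends of the other lists. Others named were chosen after their values were seen. There were 22 alternatives: pseudocounts, filters, scalings, the replicate block, limma without a trend, library weights, voom on recovered reads, the first principal component as a covariate, and the loss of each library or of 3 libraries. Values of some pathway genes are not reported here.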

Additional observations from a re-analysis of the deposited data

Results flagged for a closer look

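Single libraries lay far from the other 4 of their condition in 3 of the 56 groups of 5 tested (28 genes in 2 conditions), where chance gives about 1 in 20, or 2.8. The measure is the gap to the nearest library divided by the range of the group, and its limit for 5 libraries is 0.71. IFI6 was low in DMSO library 3, at 3.53 RPKM with the nearest library at 4.39 RPKM, a ratio of 0.856. SAMD9 was low in DMSO library 4, at 0.525 RPKM with the nearest at 1.07 RPKM, a ratio of 0.790. IFIT1 was high in DMSO library 1, at 1.10 RPKM with the nearest at 0.863 RPKM, a ratio of 0.729.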

How the results depend on the processing

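Under all 22 alternatives 0 of the tested interferon-stimulated genes and 0 of the other pathway genes passed the threshold, and the median of the members moved by less than 0.0684, the SD of the library medians. The number of all genes past the threshold, 32, fell to 21 with no filter, 20 without a trend and 18 without DMSO library 1 and GW3965 libraries 1 and 2, and was 56 with library weights, 63 with voom on the recovered reads and 146 with the first principal component as a covariate. Without 1 library each it ran from 17 (without GW3965 library 2 or 4) to 38 (without DMSO library 4). The cause was not tested. The LXR target genes stayed past the threshold in 128 of 132 values. MYLIP and SREBF1 lost their call without the 3 libraries and in the replicate block.

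Of the 28 members, 18 kept the sign of their log2 fold change throughout and 10 did not, all of these with a value of at most 0.12 in size. With library weights IFI6 was at 0.020, PARP9 at 0.0080, CMPK2 at 0.050, DDX60 at -0.037 and IRF9 at -0.026. Without the 3 libraries IFI6 was at 0.066, PARP9 at 0.012, IFIT5 at 0.030, CMPK2 at 0.12, DDX60 at -0.016 and HERC6 at -0.0056. STAT2 was at -0.0053 with quantile normalization, and IRF9 at -0.0040 with the principal component. Without 1 library each the values ran from -0.019 to 0.030 for STAT2, -0.19 to 0.013 for IFI6, -0.082 to 0.026 for PARP9, -0.059 to 0.022 for IFIT5, -0.30 to 0.045 for SAMD9, -0.0086 to 0.19 for DDX60, -0.054 to 0.19 for IFIH1 and -0.038 to 0.095 for IRF9.

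With the replicate number as a block, 16 genes passed, none of them a member. Whether the numbers pair the libraries is not given in the labels. Deviations of same-numbered libraries correlated at 0.15, -0.05, 0.04, 0.16 and -0.14. Number 4 was the best match in both directions, but not every library correlated best with its own number. Such weak correlations cannot settle whether same-numbered libraries were handled together. The 9 untested genes were left out by the limit on RPKM. Among the tested members BST2 rested on the fewest reads, at most 44 per library.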

Other observations

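STAT3 and DHX58, both near or at 0 reads, lie in 1 run of 13 neighbouring protein-coding genes on chromosome 17, from DHX58 to ATP6V0A1 (chr17:42101404-42522611, GENCODE 29 on GRCh38), none of which had a mean above 0.0255 RPKM. There were 7 genes in the run with 0 reads in all 10 libraries. STAT5A had 0 reads and STAT5B 72. Outside the run, C17orf113 was at 0.835, ZNF385C at 0.203 and NKIRAS2 at 5.05 RPKM on one side. On the other side NAGLU was at 2.45, HSD17B1 at 0.152 and COASY at 13.2 RPKM. The run was found after the values were seen. The means are over the libraries of both conditions, and the members of the set on chromosome 17, IFI35 and XAF1, lie outside it.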
